A study of Sus scrofa with 23 samples.

Results

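The genes described here present antigen: the molecules of the pig major histocompatibility complex (MHC), which carry the prefix SLA for swine leukocyte antigen, their regulators, the enzymes and transporters that supply peptides, and the costimulatory ligands CD80 and CD86. They were chosen by name, as every gene name that starts with SLA- and 17 other named genes with their numbered copies, which gave 42 of the 35228 gene names. CD74, the invariant chain of class II molecules, is among the 17 named genes and is not analysed here. RNA had been sequenced from coronary artery segments 3 mm long of Yorkshire swine, a breed of domestic pig, all of them hypercholesterolemic and some also diabetic, after each segment was graded for atherosclerosis by histology. The 23 libraries form 5 groups by their titles: 4 mild, 4 moderate and 5 severe segments without diabetes, and 6 moderate and 4 severe segments with diabetes. The labels give no age and no agent that made the animals diabetic, and mild segments with diabetes were not analysed here.

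For 1 library, severe non-diabetic replicate 5, the title says severe and non-diabetic while the characteristics say moderate and diabetic. Group sizes implied by the deposited standard errors were 4.999 for the severe non-diabetic and 6.006 for the moderate diabetic group, which places it with its title in the authors' fit, and the same was done here. Only group means and test results were used, with no value of a single library, so no result could be computed without that library, and how many samples share a direction is unknown. Approximate library totals, read from the steps of single reads among the lowest means, lay between 6.72 M and 15 M reads. Which animal gave which segment is not labelled: p-values rest on the spread between segments, and where 1 animal gave several segments of a group they are too small.

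MHC class I molecules sit on nearly all nucleated cells and show peptides cut from proteins inside the cell to CD8+ T cells. Class II molecules show peptides from engulfed material to CD4+ T cells, and in humans and mice they sit mainly on macrophages, dendritic cells and B cells. Class I peptides are cut by the proteasome, which interferon gamma refits with the immunoproteasome subunits PSMB8, PSMB9 and PSMB10, and are carried into the endoplasmic reticulum by the transporter TAP1 and TAP2. In humans and mice the transcriptional coactivator NLRC5 drives class I genes and CIITA drives class II genes, both through the RFX complex bound at the promoters. In atherosclerotic arteries of humans and mice, class II molecules are known mainly from macrophages and dendritic cells of the plaque.

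Calls, higher or lower, were made where the adjusted p that DESeq2 had given was under 0.05. Of the 42 names, 40 had an adjusted p in every comparison and 38 had a mean across groups of 10 normalized counts or more. In total 15 names were called higher in at least 1 comparison, 27 in none, and 0 were called lower in any.

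Moderate segments without diabetes exceeded mild ones in 2 of 40 tested names, CD86 and SLA-DMB, beside 3.56% of all genes tested called higher. Severe exceeded mild segments in 8 of 40, beside 7.19% of all genes. Diabetic exceeded non-diabetic moderate segments in 11 of 40, beside 8.2% of all genes, and diabetic exceeded non-diabetic severe segments in 1 of 40, beside 5.75%. Of those 11 names, 4 are copies of the 1 gene NLRC5. Severe against moderate segments gave 0 of 40 without diabetes, beside 0.00507% of all genes called higher. There 8 names had an unadjusted DESeq2 p under 0.05, beside 850 of 30151 genes with a p. With diabetes the step from moderate to severe gave 0 of 41, beside 0.00332% of all genes called higher. There 1 name had an unadjusted DESeq2 p under 0.05, beside 864 of 30151 genes with a p. The shares of all genes called lower were 1.08%, 4.8%, 8.46% and 4.92% in the first 4 of these comparisons as listed, and 0.0152% and 0% for severe against moderate segments without and with diabetes.

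Of the 8 class I molecules, 0 were called higher in moderate than in mild segments without diabetes, 2 in severe than in mild segments (SLA-5 and SLA-8) and 2 with diabetes in moderate segments (SLA-6 and SLA-8). SLA-1, a classical class I heavy chain, had authors' means of 4382 normalized counts in mild, 4696 in moderate and 7336 in severe segments without diabetes, and 7959 in moderate and 7709 in severe segments with diabetes. The 2 lowest of these means are the mild and the moderate group without diabetes, and the other 3 lie close together. SLA-3, another classical heavy chain, had authors' means of 2600, 2625 and 3813 without and 4323 and 3995 with diabetes, which is the same order of high and low groups. Neither SLA-1 nor SLA-3 was called in any comparison: the log2 fold change for diabetes in moderate segments was 0.76 ± 0.35 (standard error, adjusted p = 0.121) for SLA-1 and 0.72 ± 0.36 (adjusted p = 0.169) for SLA-3 by the authors' deposited table.

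The nonclassical class I genes had smaller standard errors, and some of them passed the test. SLA-8 had authors' means of 176.3, 186.9 and 283.3 in mild, moderate and severe segments without diabetes and 299.1 and 307.6 in moderate and severe segments with diabetes. It was higher in severe than in mild segments (log2 0.68 ± 0.22, 1.61-fold, adjusted p = 0.0256) and with diabetes in moderate segments (log2 0.68 ± 0.22, 1.60-fold, adjusted p = 0.0156), per the authors' deposited tables. SLA-6 had authors' means of 136.3, 142.2 and 154.3 without and 228.2 and 188.2 with diabetes. Its 3 non-diabetic groups lie close together, and it was higher with diabetes in moderate segments (log2 0.67 ± 0.17, adjusted p = 0.00105, per the authors' deposited table). SLA-7 had authors' means of 221.5, 239.9 and 286.2 without and 254.0 and 292.9 with diabetes and was called in no comparison.

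SLA-5 and SLA-11 were the class I molecules with their highest mean in severe segments without diabetes. For SLA-5, a heavy chain gene within the SLA-1 interval, the authors' means were 122.0, 174.6 and 498.4 in mild, moderate and severe segments without diabetes and 240.1 and 275.2 in moderate and severe segments with diabetes. SLA-5 was 4.08-fold higher in severe than in mild segments (log2 2.03 ± 0.43, adjusted p = 0.000108, per the authors' deposited table). Against moderate segments without diabetes the severe value was 1.51 ± 0.43 on the log2 scale (adjusted p = 0.336), and with diabetes in severe segments it was -0.86 ± 0.43 (adjusted p = 0.199), in the authors' deposited tables. SLA-11, which RefSeq annotates as a pseudogene, also had its highest authors' mean there: 1449, 1500 and 2280 without and 1870 and 1808 with diabetes, with no call. The conflictingly labelled library is 1 of the 5 in that group, and its part in these values was not tested.

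B2M, the light chain of every class I molecule, had authors' means of 176.4, 238.7 and 314.4 without and 296.0 and 328.4 with diabetes. It was not called, at 0.84 ± 0.36 for severe against mild segments (adjusted p = 0.121) by the authors' deposited table. RefSeq lists 2 entries named B2M, so its reads may be split. The reads of the classical class I genes can also be shared: on Sscrofa11.1 the SLA-1 interval (chr7:22824137-22920154) covers SLA-5 (chr7:22851888-22854782) and meets SLA-2, and that of SLA-3 (chr7:22938211-22942735) overlaps SLA-2. LOC100513601, a name outside the rule that lies within the SLA-1 interval and was looked up after the values of SLA-1 were seen, had authors' means of 5583, 5484 and 8480 without and 8005 and 8132 with diabetes. Its means thus order the groups as high and low like those of SLA-1.

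**Figure D1:**
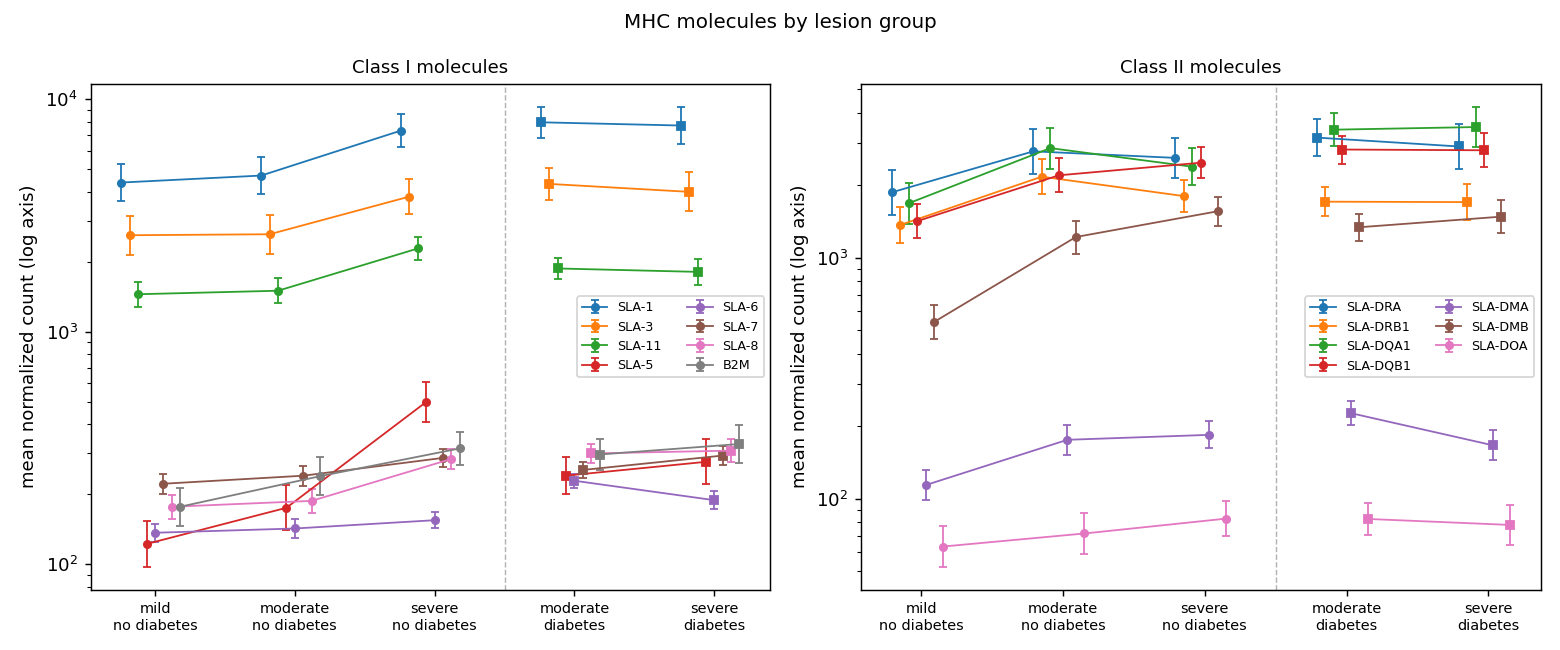
Mean normalized count (log axis) of the class I molecules (left) and the class II molecules with a mean across groups of 50 or more (right) in the 5 lesion groups, circles without and squares with diabetes. Bars are the modelled standard error of each group mean, solved from the deposited standard errors; points are shifted sideways for legibility. SLA-1 goes from 4382 in mild to 7336 in severe segments without diabetes, whereas SLA-DRA is already at 2763 in moderate segments, from 1866 in mild ones.

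NLRC5, the coactivator of class I genes, was the member with numbered copies whose copies were all called higher with diabetes in moderate segments. Its reads are split over 4 numbered names, all at a single RefSeq locus (chr6:18933179-19036288), so these are copies of 1 gene name and no replicates. NLRC5_2, the copy with the highest mean, had authors' means of 38.5, 43.9 and 86.0 in mild, moderate and severe segments without diabetes and 138.0 and 95.8 in moderate and severe segments with diabetes. The moderate diabetic mean is the highest of the 5, and the mild and moderate means without diabetes are the lowest. With diabetes in moderate segments NLRC5_2 was 3.12-fold higher (log2 1.64 ± 0.34, adjusted p = 6.82e-05), and NLRC5_4 was 3.75-fold higher (log2 1.91 ± 0.48, adjusted p = 0.00133), by the authors' deposited table. NLRC5_1 stood at 1.50 ± 0.43 (adjusted p = 0.00566) and NLRC5_3 at 1.43 ± 0.40 (adjusted p = 0.00509) on the log2 scale there, by the authors' deposited table.

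The means of the 4 NLRC5 names summed to 71.77, 83.38 and 155.66 without and 255.42 and 187.34 with diabetes. This sum ran at 1.16, 2.17, 3.56 and 2.61 times the mild value in moderate and severe segments without and moderate and severe segments with diabetes. In severe against mild segments all 4 names had positive fold changes and NLRC5_2 alone was called (log2 1.17 ± 0.36, adjusted p = 0.0152, per the authors' deposited table). With diabetes in severe segments the 4 names stood at 0.16 to 0.50 on the log2 scale in the authors' deposited table, with 0 called.

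Among the genes of class I peptide supply, PSMB9 and TAP1 were higher with diabetes in moderate segments. PSMB9, an immunoproteasome subunit, had authors' means of 37.7, 29.6 and 55.0 in mild, moderate and severe segments without diabetes and 84.1 and 38.9 in moderate and severe segments with diabetes. The moderate diabetic mean is the highest, and the severe diabetic mean is near the mild one. Severe against moderate diabetic segments stood at -1.11 ± 0.40 on the log2 scale, by the authors' deposited table, and was not called. The difference with diabetes in moderate segments was 2.95-fold (log2 1.56 ± 0.40, adjusted p = 0.002, per the authors' deposited table). TAP1_2, the copy that holds nearly all TAP1 reads, had authors' means of 398.8, 514.5 and 626.3 without and 899.8 and 778.7 with diabetes. Both diabetic means exceed all 3 others, and the difference in moderate segments was called (log2 0.81 ± 0.29, adjusted p = 0.0364, per the authors' deposited table).

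The other peptide supply genes were not called in any comparison. PSMB8_1, PSMB10, TAP2_1 and TAP2_2 had log2 fold changes of 0.72 ± 0.34, 0.56 ± 0.28, 0.66 ± 0.34 and 0.84 ± 0.37 for diabetes in moderate segments (adjusted p of 0.103 to 0.174) by the authors' deposited table. PSMB10 came closest for severe against mild segments, at 0.78 ± 0.29 (adjusted p = 0.0593, per the authors' deposited table). PSME1 and PSME2, the subunits of the proteasome activator, stood at 0.42 ± 0.26 and 0.38 ± 0.33 for diabetes in moderate segments, from the authors' deposited table. TAPBP, the loading factor tapasin, and ERAP1, which trims peptides, had the flattest levels: authors' means ran from 498.4 to 555.1 for TAPBP and from 836.4 to 999.3 for ERAP1 over the 5 groups. PSMB8_2 and TAP1_1, low copies, had authors' means of 8.13 to 18.9 and 5.80 to 9.45.

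**Figure D2:**
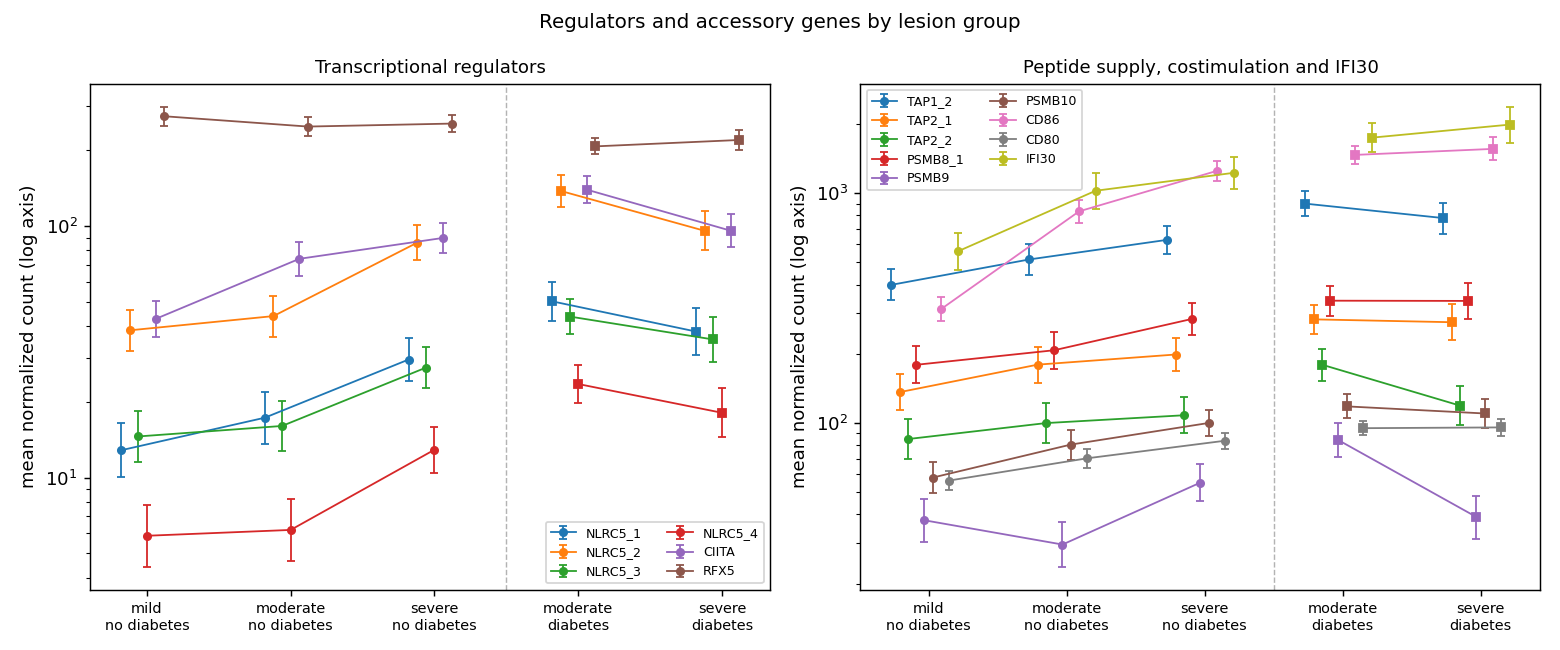
Mean normalized count (log axis) of the transcriptional regulators (left) and of peptide supply genes, CD80, CD86 and IFI30 (right) in the 5 lesion groups, with circles for groups without and squares for groups with diabetes, and bars for the modelled standard error of each mean. All 4 NLRC5 names and CIITA are highest in moderate diabetic segments, where CIITA reaches 139.7, and RFX5 is lowest there, at 207.6.

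Of the class II molecules, SLA-DMB was the 1 called higher in moderate than in mild segments without diabetes, and the abundant DR and DQ chains had higher means there without a call. SLA-DRA, the alpha chain of the DR molecule, had authors' means of 1866 in mild, 2763 in moderate and 2596 in severe segments without diabetes, and 3151 and 2895 in moderate and severe segments with diabetes. SLA-DQA1 had authors' means of 1681, 2849 and 2386 without and 3398 and 3484 with diabetes, and SLA-DQB1 had 1417, 2197 and 2478 without and 2811 and 2791 with diabetes. The beta chain SLA-DRB1 was highest in moderate segments without diabetes, with authors' means of 1366, 2169 and 1802 without and 1708 and 1701 with diabetes. The mild group had the lowest mean for each of these 4 chains, and 0 of them was called: the largest log2 fold change was 0.81 ± 0.32 for SLA-DQB1 in severe against mild segments (adjusted p = 0.0782, per the authors' deposited table).

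SLA-DMB, a chain of the DM molecule that exchanges peptides on class II, was the only class II molecule called higher in moderate or severe than in mild segments. The means of SLA-DQB1, SLA-DMA and SLA-DOA also rose from mild over moderate to severe segments without diabetes, without a call. Its authors' means were 541.1, 1218 and 1558 in mild, moderate and severe segments without diabetes and 1337 and 1480 in moderate and severe segments with diabetes. It was 2.25-fold higher in moderate than in mild segments (log2 1.17 ± 0.32, adjusted p = 0.0104) and 2.88-fold higher in severe than in mild segments (log2 1.53 ± 0.31, adjusted p = 2.57e-05), per the authors' deposited tables. Its difference with diabetes was 0.14 ± 0.29 in moderate and -0.07 ± 0.30 in severe segments on the log2 scale, per the authors' deposited tables, and neither was called. The partner chain SLA-DMA had authors' means of 113.8, 175.4 and 183.9 without and 226.3 and 166.5 with diabetes and was not called (0.69 ± 0.28 for severe against mild, adjusted p = 0.0921, per the authors' deposited table). SLA-DMB (chr7:25119278-25125089) and SLA-DMA (chr7:25133494-25137928) both overlap the RefSeq interval of BRD2, and the strand used in counting is not given in the sources used here, so reads of overlapping genes cannot be told apart.

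SLA-DOA, a chain of the DO molecule that restrains DM, had authors' means of 63.2 to 82.6 over the 5 groups, and SLA-DOB had 8.79 to 14.0. Neither was called. Of the remaining class II names, SLA-DOB2, which has no RefSeq entry, had authors' means of 4.79 to 10.8. The pseudogenes SLA-DQB2, SLA-DRB5 and SLA-DYB had 24.0 to 48.9, at most 1.35 and 0 in every group. SLA-DYB is thus listed at 0 and has no p, and SLA-DRB5 had an adjusted p only in severe against moderate diabetic segments.

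SLA-DRB4, annotated by RefSeq as a pseudogene (chr7:24845944-24856508), was the only name called with diabetes in severe segments. Its authors' means were 1.15, 17 and 0.364 in mild, moderate and severe segments without diabetes and 35.8 and 23.2 in moderate and severe segments with diabetes. The severe non-diabetic mean is the sum of 2 single-read steps, less than the mean of 0.61 that 3 reads would give, and the ratio of the means was 63.9, with a counting interval of 17.2 to 534.7 (95%, exact, which covers counting error only). The deposited fold change was 5.83 ± 1.84 on the log2 scale (adjusted p = 0.0225, per the authors' deposited table). Severe against moderate segments without diabetes stood at -5.38 ± 1.84 (adjusted p = 0.618, per the authors' deposited table), and of the non-diabetic groups the moderate one had the highest mean. Presence or absence of this sequence in single animals could not be examined from group means.

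CIITA, the coactivator of class II genes, rose with both lesion grade and diabetes. Its authors' means were 42.7, 74.1 and 89.8 in mild, moderate and severe segments without diabetes and 139.7 and 95.9 in moderate and severe segments with diabetes. It was 2.08-fold higher in severe than in mild segments (log2 1.05 ± 0.31, adjusted p = 0.01) and 1.87-fold higher with diabetes in moderate segments (log2 0.91 ± 0.29, adjusted p = 0.0157), per the authors' deposited tables. In severe segments the difference with diabetes was 0.10 ± 0.30 (adjusted p = 0.878, per the authors' deposited table). RFX5, the promoter-bound factor that both coactivators need, ran the other way in its means and was not called: 273.6, 248.9 and 255.8 without and 207.6 and 220.2 with diabetes were its authors' means.

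IFI30, a thiol reductase of lysosomes that unfolds antigens for class II loading, had authors' means of 557.3, 1024 and 1225 without and 1742 and 1986 with diabetes. Each group's mean exceeded the one before it in that order. The call was for severe against mild segments (log2 1.14 ± 0.35, 2.20-fold, adjusted p = 0.0152, per the authors' deposited table), while the differences with diabetes were 0.77 ± 0.34 in moderate (adjusted p = 0.101) and 0.70 ± 0.35 in severe segments (adjusted p = 0.196), per the authors' deposited tables.

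The costimulatory ligands CD86 and CD80, which signal through CD28 on T cells, were each called higher in more than 1 comparison. CD86, called in 3 comparisons, more than any other member, had authors' means of 312.7, 832.7 and 1250 in mild, moderate and severe segments without diabetes and 1466 and 1558 in moderate and severe segments with diabetes. It was 2.66-fold higher in moderate (log2 1.41 ± 0.24, adjusted p = 6.38e-07) and 4.0-fold higher in severe than in mild segments (log2 2.0 ± 0.23, adjusted p = 3.21e-16), per the authors' deposited tables. With diabetes it was 1.76-fold higher in moderate segments (log2 0.82 ± 0.21, adjusted p = 0.00239) and stood at 0.32 ± 0.22 in severe segments (adjusted p = 0.399), per the authors' deposited tables. CD80 had authors' means of 56.2, 70.2 and 83.7 without and 94.9 and 95.6 with diabetes. It was higher in severe than in mild segments (log2 0.57 ± 0.18, adjusted p = 0.0234) and with diabetes in moderate segments (log2 0.46 ± 0.17, adjusted p = 0.0488), per the authors' deposited tables, and the second call is lost, at 0.0667, when every gene with a p is adjusted together.

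**Figure D3:**
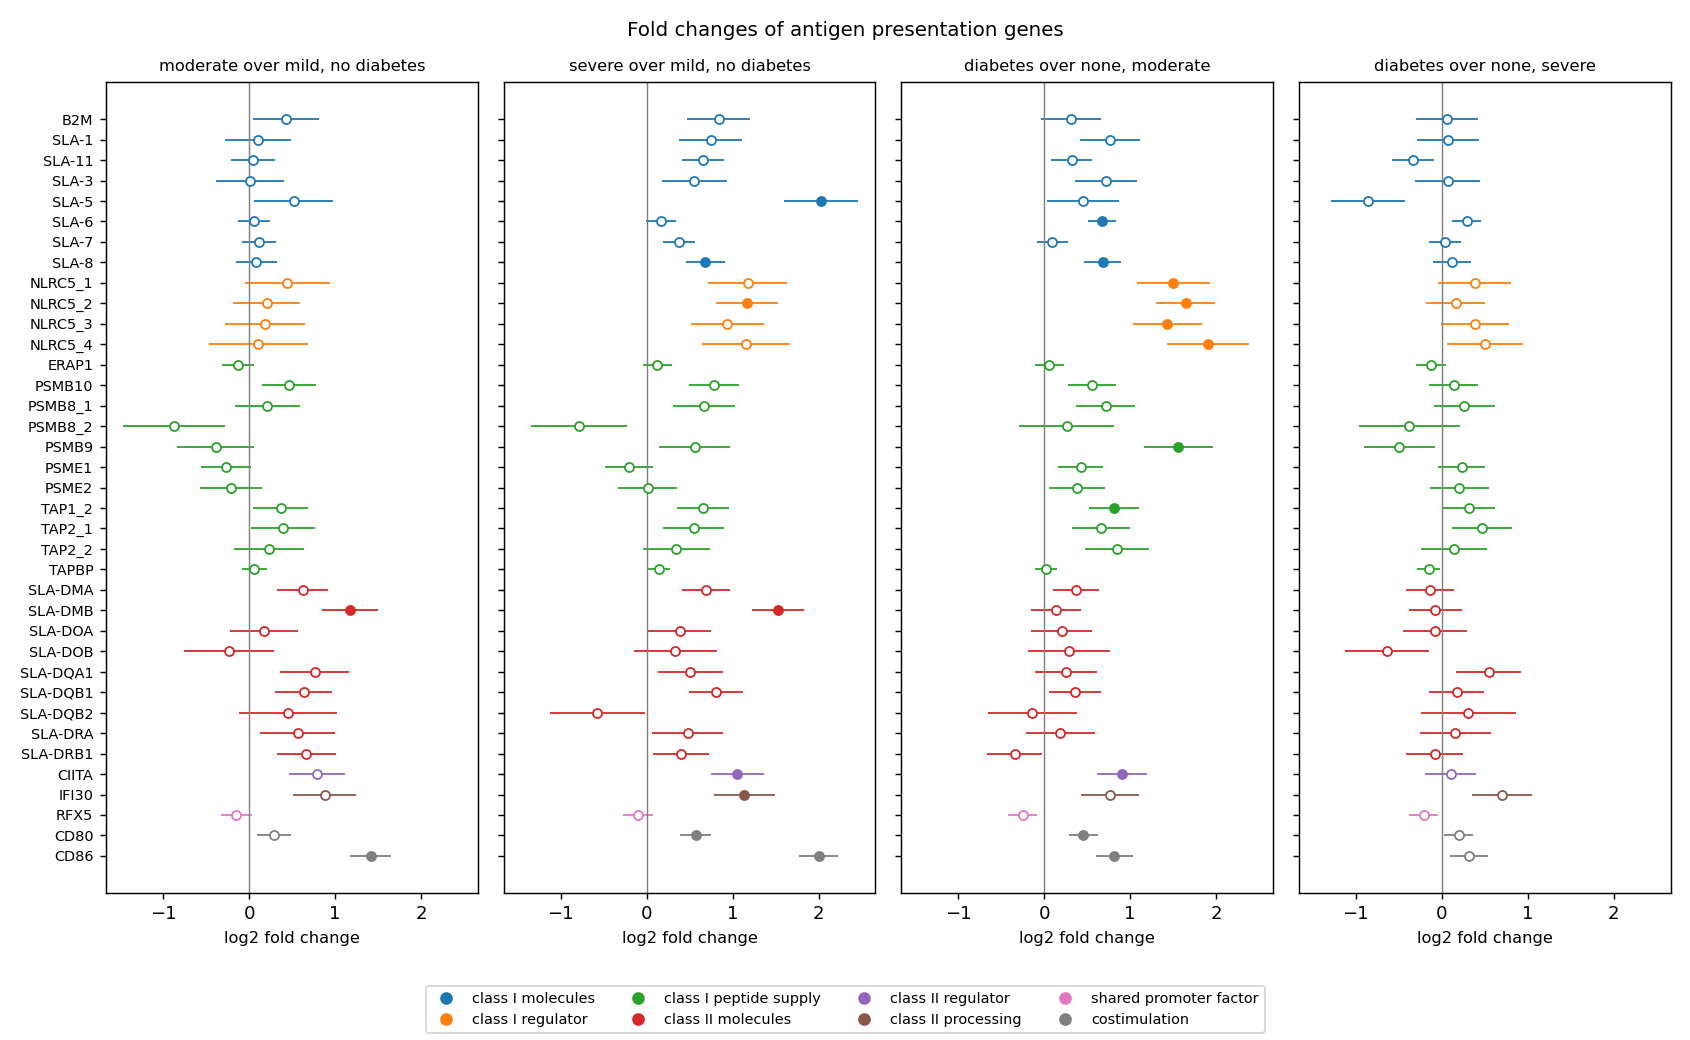
Deposited log2 fold changes with standard errors of the members with a mean across groups of 10 or more, SLA-DRB4 apart, in 4 comparisons on a common axis; filled points passed an adjusted p under 0.05. In moderate over mild segments the filled points are CD86 and SLA-DMB; for diabetes in moderate segments they lie mostly among the class I genes, with NLRC5_4 furthest right at 1.91; and for diabetes in severe segments 0 of those drawn is filled.

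Class I and class II genes were then set apart, with class I holding its molecules, NLRC5 and the peptide supply genes (24 names) and class II its molecules, CIITA and IFI30 (15 names). For diabetes in moderate segments 8 of 24 tested class I names were called higher, or 33.3%, and 1 of 13 tested class II names, or 7.69%, beside 8.2% of all genes. Counted once per gene, the class I names called were NLRC5, PSMB9, SLA-6, SLA-8 and TAP1, and the class II name was CIITA. For severe against mild segments 3 of 24 class I names and 3 of 13 class II names were called higher, beside 7.19% of all genes. For moderate against mild segments 0 of 24 class I names were called, with 0 at an unadjusted DESeq2 p under 0.05, and 1 of 13 class II names, with 5 at an unadjusted p under 0.05. Of all genes tested 3.56% were called higher there, and 3157 of 30151 genes with a p had an unadjusted DESeq2 p under 0.05. The class I count of 0 called is thus not far from the share of all genes.

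Medians were taken over members with a mean across groups of 10 or more, on the log2 scale. For moderate against mild segments the median log2 fold change was 0.09 for the 8 class I molecules and 0.63 for the 10 class II molecules, beside 0.00 for all genes. For severe against moderate segments without diabetes it was 0.57 for class I and -0.01 for class II molecules, beside -0.02 for all genes, and with the low class II members included it was 0.11 over 12 class II molecules, the other sign. Over both steps, severe against mild, it came to 0.67 and 0.44, beside -0.03 for all genes. For diabetes in moderate segments it was 0.56 and 0.23, beside -0.01, and for diabetes in severe segments 0.07 and 0.04, beside 0.03. In severe against moderate diabetic segments it was -0.00 and -0.10, beside 0.02. These comparisons share groups with each other, so their medians are not independent.

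Whether a gene's second step without diabetes differed from its first was tested directly with a Wald test from the joint fit. It passed at an adjusted p under 0.05 for 0 of 38 members and for 37 of 17493 genes (0.212%). At an unadjusted p under 0.05 by this test there were 2 members (5.26%), SLA-DRB4 and CD86, beside 3.89% of all genes. CD86 rose by 1.41 at the first step and stood at 0.59 at the second, a difference of -0.83 ± 0.40 (adjusted p = 0.999 by the Wald test). The contrast between class I and class II over the steps of lesion grade is therefore a pattern of medians. Both steps share the moderate group without diabetes, and for 0 single members did the difference between steps pass this test.

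**Figure D4:**
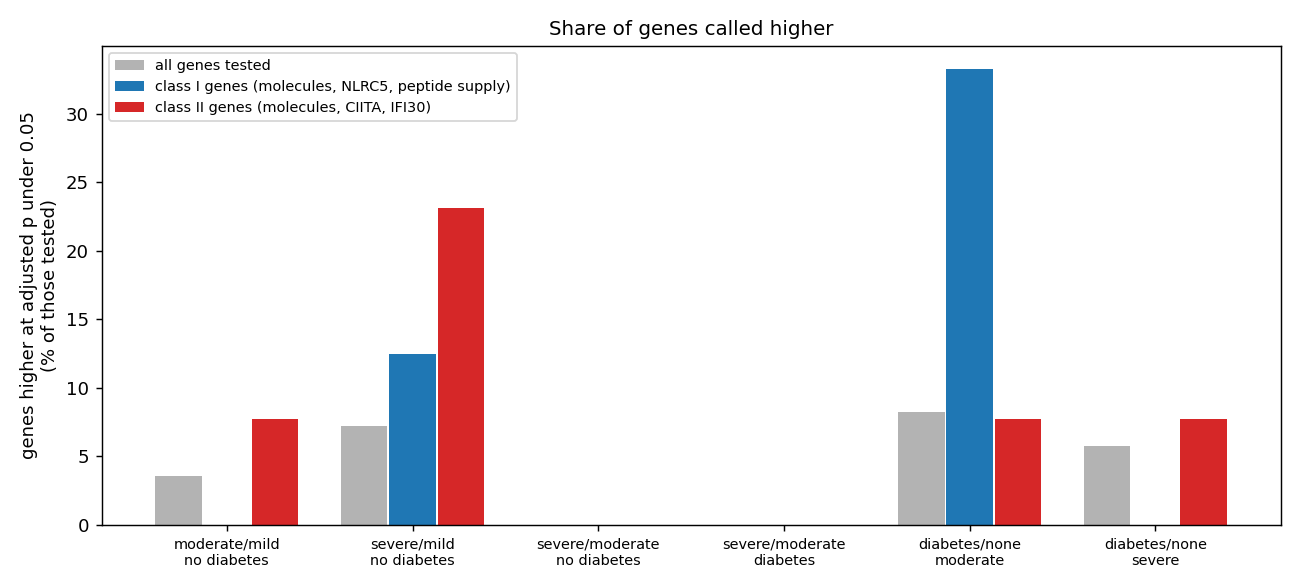
Share of tested genes called higher at an adjusted p under 0.05 in each of the 6 comparisons, for all genes (grey), class I genes (blue) and class II genes (red); no bar means a share of 0 or, for all genes in severe over moderate segments, under 0.01%. The tallest bar is the class I share for diabetes in moderate segments, 33.3% beside 8.2% of all genes. Of the 8 names called in that bar, 4 are copies of the 1 gene NLRC5.

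The authors' means were also summed over the molecules of each class. The class I molecules summed to 9263 in mild, 9803 in moderate and 14965 in severe segments without diabetes and to 15470 and 14904 in moderate and severe segments with diabetes. The class II molecules summed to 7106, 11527 and 11136 without and 12811 and 12665 with diabetes. The class I sum is mostly SLA-1, SLA-3 and SLA-11, and reads were not scaled by transcript length, so only its changes between groups can be read. The ratio of the class II to the class I sum was 0.767 in mild, 1.18 in moderate and 0.744 in severe segments without diabetes, and 0.828 and 0.85 in moderate and severe segments with diabetes. Moderate segments without diabetes thus had the highest ratio, and the sums, made of group means, carry no test.

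Some names were called for both severity and diabetes. Of the 8 names higher in severe than in mild segments and the 11 higher with diabetes in moderate segments, 5 were called in both: CD80, CD86, CIITA, NLRC5_2 and SLA-8. These comparisons share no library, though segments of the same animals may stand in several groups. SLA-5, SLA-DMB and IFI30 were called for severity and not for diabetes, and NLRC5_1, NLRC5_3, NLRC5_4, PSMB9, SLA-6 and TAP1_2 for diabetes and not for severity, and for these names the difference between the comparisons was not tested.

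The difference with diabetes was set against lesion grade by testing the severe minus the moderate diabetes contrast, which is the same number as the step from moderate to severe with diabetes minus that without. It passed for 0 of 38 members and for 2 of 17493 genes (0.0114%). An unadjusted p under 0.05 by this Wald test was reached by 5 of 38 members (13.2%), beside 4.04% of all genes. Of these 5, 2 are copies of the 1 gene NLRC5. The lowest p was that of PSMB9, whose contrast was lower in severe than in moderate segments by a log2 difference of -2.05 ± 0.58 (Wald test on the DESeq2 fit, adjusted p = 0.336). NLRC5_2 followed with -1.48 ± 0.49 (Wald test, adjusted p = 0.838). The other 3 were SLA-5 with -1.31 ± 0.60, NLRC5_4 with -1.41 ± 0.65 and SLA-DRB4 with 4.76 ± 2.40, each with an adjusted p of 0.999 by the Wald test. The 11 calls in moderate and 1 in severe segments are thus not shown to differ for any single member.

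Among the 38 members with a mean across groups of 10 or more, the mild group held the lowest mean for 28 (73.7%), beside 31.8% of all genes. A diabetic group held the highest mean for 27 (71.1%), beside 45.5% of all genes. For 19 of them it was the moderate diabetic group, which included all 4 NLRC5 names and 7 of 11 peptide supply names. RFX5 and PSMB8_2 were the 2 members with their highest mean in mild segments.

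The members that rose lie both inside and outside the MHC. In RefSeq the SLA genes with PSMB8, PSMB9, TAP1 and TAP2 lie on chromosome 7 between 22824137 and 25182665, a span with 142 RefSeq entries. Of the 42 names 26 lie inside it, and 87 further names of the tables do. For diabetes in moderate segments, members inside the span had a median log2 fold change of 0.37 (4 of 24 called higher), those elsewhere or unplaced had 0.56 (7 of 16), and the other genes of the span had 0.02 (6 of 66), beside 8.2% of all genes called higher. Of the 7 called outside the span, 4 are copies of the 1 gene NLRC5. For severe against mild segments those medians were 0.55, 0.84 and 0.07. The genes elsewhere include NLRC5, CIITA (chr3:32171706-32230775), CD86 (chr13:138427573-138504307) and CD80 (chr13:140693312-140730541).

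The wider pathways of antigen processing were read from lists of genes outside the members. Of 7 cathepsins and other class II processing genes measured, 4 were higher in moderate and 4 in severe than in mild segments, 5 with diabetes in moderate and 3 with diabetes in severe segments, with 0 lower. The shares of all genes called higher in these 4 comparisons, in that order, were 3.56%, 7.19%, 8.2% and 5.75%, and they are the background for each list here. Cathepsin CTSS, which degrades the invariant chain, had authors' means of 1993, 7577 and 12284 without and 15626 and 18693 with diabetes (log2 1.93 ± 0.34 in moderate and 2.62 ± 0.32 in severe segments, each over mild, per the authors' deposited tables). LGMN, an endopeptidase of lysosomes, had authors' means of 1555, 2536 and 2404 without and 7746 and 7781 with diabetes, and was higher with diabetes in both moderate (log2 1.61 ± 0.27, adjusted p = 4.3e-07) and severe segments (log2 1.69 ± 0.28), per the authors' deposited tables.

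On the class I side the counts called among broadly expressed genes were near the shares of all genes, 8.2% for diabetes in moderate segments and 7.19% for severe against mild. Of 8 chaperones and peptidases measured, 0 were higher with diabetes in moderate segments and 1, the peptidase THOP1, was higher in severe than in mild segments (log2 0.46 ± 0.15, adjusted p = 0.0229, per the authors' deposited table). Of 14 constitutive proteasome genes, 1 was higher with diabetes in moderate segments, the activator PSME4_2 (log2 0.28 ± 0.10, adjusted p = 0.0257, per the authors' deposited table), with a list median of 0.17. The immunoproteasome subunits above had log2 fold changes for diabetes in moderate segments of 0.56 to 1.56, with the low copy PSMB8_2 at 0.26, per the authors' deposited table. Of these PSMB9 alone was called. With diabetes in severe segments PSMB8_1, PSMB10, PSMB8_2 and PSMB9 stood at 0.26, 0.14, -0.38 and -0.49 and were not called. The median of the constitutive list was 0.31 there.

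Of the interferon gamma pathway, 0 of 16 tested genes were higher in moderate and 1 in severe than in mild segments, 5 with diabetes in moderate and 2 with diabetes in severe segments, with 0 lower, beside 3.56%, 7.19%, 8.2% and 5.75% of all genes called higher. The first 2 of these counts are not far from the share of all genes. SOCS3, a feedback inhibitor of cytokine signalling, had authors' means of 9.88, 19.9 and 31.1 without and 99.4 and 86.8 with diabetes and was higher with diabetes in moderate segments (log2 2.30 ± 0.37, adjusted p = 1.49e-07, per the authors' deposited table). PTPN2, a phosphatase that restrains this pathway (log2 0.65 ± 0.15), JAK1_1, a receptor kinase (0.36 ± 0.12), and IRF1, a transcription factor of class I genes (0.96 ± 0.31), were higher there with adjusted p of 0.0167 or less by the authors' deposited table. The authors' means of IFNG itself were under 1 in every group.

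Of the factors that bind or regulate MHC promoters, PRDM1 and SPI1 were higher and RFXAP lower with diabetes in moderate segments. RFXAP, a subunit of the same RFX complex as RFX5, had authors' means of 179.9, 197.2 and 179.3 without and 130.3 and 161.2 with diabetes (log2 -0.60 ± 0.12, adjusted p = 2.96e-05, for diabetes in moderate segments, from the authors' deposited table). PRDM1, which in humans and mice represses CIITA in plasma cells, stood at 1.36 ± 0.26 (adjusted p = 1.1e-05) there and SPI1, a factor of myeloid cells, at 0.95 ± 0.19 (adjusted p = 2.08e-05), by the authors' deposited table. Of 13 such factors 3 were higher and 1 lower in that comparison, beside 8.2% and 8.46% of all genes.

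Of 12 further ligands that costimulate or restrain T cells, 6 of 12 tested were higher with diabetes in moderate segments, beside 8.2% of all genes, and 4 of 11 with diabetes in severe segments, beside 5.75%. Over mild segments 3 of 11 were higher in moderate and 5 of 11 in severe segments, beside 3.56% and 7.19% of all genes. CD40, through which T cells license antigen-presenting cells, had authors' means of 73.7, 123.7 and 149.5 without and 251.7 and 300.0 with diabetes. PDCD1LG2, an inhibitory ligand, had authors' means of 70.8, 278.9 and 468.1 without and 507.4 and 506.8 with diabetes, a rise over mild segments already called in moderate segments (log2 1.98 ± 0.30, per the authors' deposited table). CD274, the other ligand of the same receptor, had authors' means of 158.5 to 205.5 over the groups and was not called.

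Sums of cell type markers differed between the groups as well. The summed macrophage markers ran at 1.94, 2.33, 3.47 and 3.89 times the mild sum in moderate and severe segments without and moderate and severe segments with diabetes, where the class I molecules ran at 1.06, 1.62, 1.67 and 1.61 and the class II molecules at 1.62, 1.57, 1.80 and 1.78 times theirs. Of the 7 macrophage markers, 4 were higher in moderate than in mild segments, beside 3.56% of all genes, and 5 with diabetes in moderate segments, beside 8.2%. The 4 were LAPTM5, MSR1, VSIG4 and AIF1, and the sum rose there mostly through LAPTM5 (1270 to 3286) and MSR1 (575.8 to 2182). From mild to moderate segments CD14 went from 157.9 to 171.7, CSF1R from 1757 to 1599 and CD163 from 154.3 to 132.1, without a call. The markers thus did not all rise with lesion grade. The dendritic cell markers summed to 141 in mild and 635.7 in moderate diabetic segments, mostly XCR1, with CCR7 and LAMP3 below 20 in every group. B cell markers summed to 6.8 to 13, with MS4A1 under 1 in every group. The heart muscle markers went from a sum of 84389 in mild to 17733 and 19282 in moderate and severe segments without diabetes and to 643.9 and 1331 with diabetes, with 3 of 3 tested lower with diabetes in both grades. The T and NK cell sum went from 1045 in mild to 624.2 in moderate segments without diabetes, mostly through CD8B (869.5 to 265.5). There CD8B was called lower and NKG7 (74.9 to 227.5) higher, beside 1.08% and 3.56% of all genes. The median log2 fold change of the 8 T and NK cell markers was 0.20 in that comparison. The sum thus follows CD8B and not this list as a whole. Of its 8 markers 3 were higher and 1 lower with diabetes in moderate segments, and likewise in severe segments. CD8A was higher (log2 1.69 ± 0.50, adjusted p = 0.00922), as were CD2 and NKG7, and CD8B lower (log2 -1.84 ± 0.49, adjusted p = 0.00297) with diabetes in moderate segments. In severe segments CD8A was higher too (log2 1.73 ± 0.50, adjusted p = 0.012), as were CD3D and CD3G, and CD8B was lower (log2 -2.19 ± 0.52, adjusted p = 0.00117), per the authors' deposited tables. The adipocyte markers ADIPOQ and PLIN1 summed to 4223 in mild, 2079 and 2126 in moderate and severe segments without and 717.1 and 1105 with diabetes. These sums were 0.49, 0.50, 0.17 and 0.26 times the mild one, and ADIPOQ was lower with diabetes in moderate segments (log2 -1.69 ± 0.61, adjusted p = 0.0368, per the authors' deposited table). The part of these cell types in the members' values was not tested, and in whole segments more cells of a type and more RNA per cell cannot be told apart. Smooth muscle and endothelial markers, which define the labelled artery, were measured in every group, at sums of 75279 to 98444 and 4083 to 6050. Of 4 endothelial markers PECAM1 was lower in moderate and in severe than in mild segments, beside 1.08% and 4.8% of all genes called lower. Of 4 smooth muscle markers CNN1 was lower in severe than in mild segments, beside 4.8%. MYH11 was lower with diabetes in moderate and in severe segments, beside 8.46% and 4.92%. For both lists 0 were called higher in these comparisons.

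**Figure D5:**
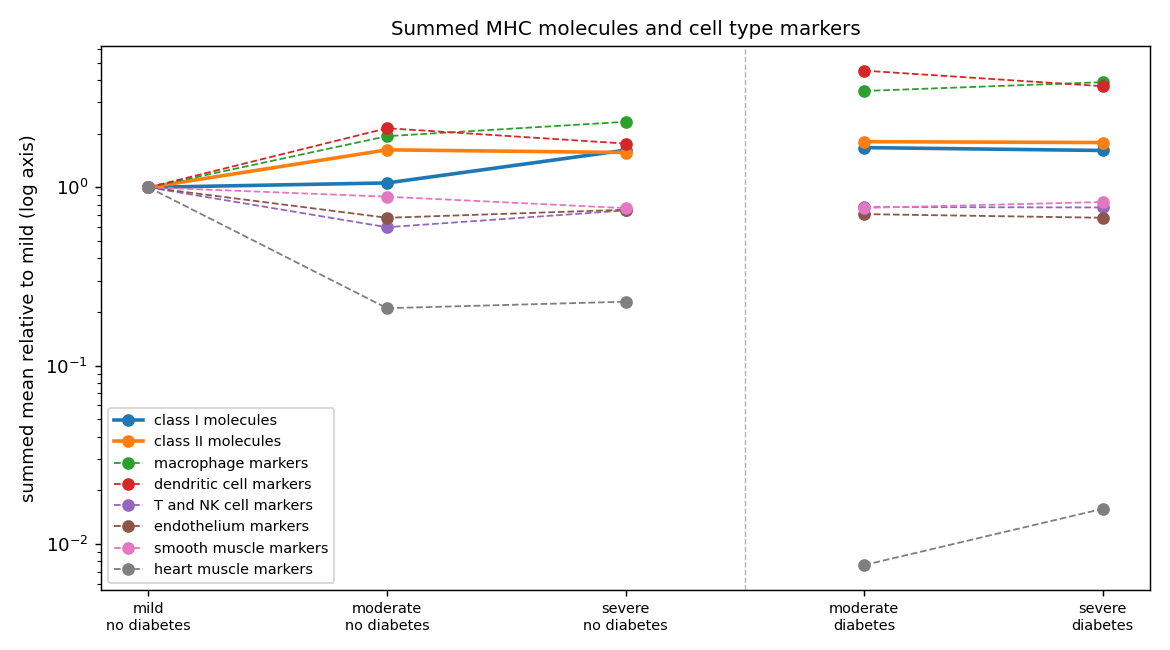
Summed authors' means relative to the mild group (log axis) for the class I and class II molecules (thick lines) and for markers of cell types (dashed) in the 5 lesion groups. The T and NK cell line follows mostly CD8B, which holds 869.5 of the sum of 1045 in mild segments. In moderate segments without diabetes the class II sum is at 1.62 and the class I sum at 1.06, while the macrophage sum is at 1.94 and the heart muscle sum at 0.21; with diabetes the heart muscle sum lies at 0.008 and 0.016.

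The members also varied more between libraries of 1 group than most genes did. Where all 5 group means reached 50, modelled variation among libraries had a median of 32.2% of the mean for the 28 members and 20.8% for all 12194 genes, with the upper quartile of all genes at 27.2%. Of the 28, 22 lay above the median of all genes and 19 above that upper quartile. It reached 44.8% for SLA-5, 42.75% for SLA-DRA and 37.4% for SLA-1, and was as low as 13.7% for TAPBP and 17.8% for SLA-6. B2M, SLA-DOA, SLA-3, SLA-DQA1 and TAP2_2 also lay above SLA-1, at 37.47%, 38.25%, 38.9%, 39.0% and 39.84%.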

How the data were processed

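Poly-A selected, randomly primed RNA from 23 segments had been sequenced, per the labels' protocols. The authors used DESeq2 and the build Sscrofa11.1, per the submitters' processing notes; for aligner, counter, strand and annotation nothing is stated (not given in the sources used here). Each of 6 tables holds 1 comparison. Per the file headers, the authors deposited normalized group means, a signal that is never negative. The authors also deposited a log2 fold change with its standard error, a test score (3 tables, sign turned against the fold change, so directions follow the fold change) and the p-value and adjusted p-value of DESeq2. An adjusted p left blank stays blank. All 5 groups had been fitted together: the squared standard errors of the 6 comparisons closed as sums of 5 group variances to within 1.6e-11. The test was a Wald test: a two-sided Wald p recomputed from each fold change and its standard error lay within 4.39e-15 of the deposited p. Of 35252 lines, 24 had a date for a name and were left out.

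The members, gene lists and naming rule were chosen with earlier results of these data known, and the test of the second against the first step was added after the values were seen. All members are accounted for; of each other list, 2 to 4 called members of smallest adjusted p were taken (where none passed, up to 2 by p), and further ones, such as CD274, IFNG and CD8A, were named after their values were seen. Counts of a list use the numbered copy with the highest mean. Group variances were solved from the standard errors, and differences between contrasts were tested with two-sided Wald tests over 17493 genes whose mean across groups was 10 or more, with Benjamini-Hochberg adjustment, after the code was tested on simulated data. The design had foreseen count tests, and as the authors' tables hold group results, their deposited DESeq2 values were taken as they are. No set test was made. Coordinates are 1-based, from RefSeq on Sscrofa11.1. Python 3.11.15, pandas 2.3.3 and scipy 1.17.1 were used.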

Additional observations from a re-analysis of the deposited data

How the results depend on the processing

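At an adjusted p under 0.01 the members called higher fell to 1 for moderate against mild, 3 for severe against mild, 7 for diabetes in moderate and 0 for diabetes in severe segments. With members of a mean of at least 50 only, 7 were called for diabetes in moderate and 0 for diabetes in severe segments, since fewer members enter. Adjusting over every gene with a p, centring on the median of all genes, a minimum mean of 10, counting copies once and log2 ratios of means with a pseudocount of 1 left every count of calls within 1.5 times and every called direction as it was; CD80 alone lost a call, under the first of these. No called direction reversed. The class II median, which carries no call, changed sign in a pair of comparisons: for severe against moderate segments without diabetes it was 0.11 over all 12 molecules, -0.01 at a minimum mean of 10 and 0.06 at 50, and for diabetes in severe segments 0.04 over all and -0.07 at 50. No paired analysis was possible because the tables hold no value per library; for the same reason leaving out each replicate was not run. Promoter motifs were not run. The 4 to 6 libraries per group and the spread between them limit the members of high variation.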
